A study of Mus musculus with 9 samples.

Results

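A pair of independent mouse embryonic stem (ES) cell lines, both homozygous for a knockout of Dgcr8, was compared microRNA by microRNA to find where line 1 differed from line 2. Each line had 2 two-colour arrays, on which knockout RNA was hybridised together with RNA of wild-type V6.5 ES cells. Of the 206 probes, 195 matched a mouse microRNA gene, and the 113 with a value on at least 1 array of each line were compared. A further 13 matched probes had a value in line 1 alone, 5 had one in line 2 alone and 64 had none in either line. The 4 probes with values in both lines but no mouse gene of that name, miR-371, miR-368, miR-373* and miR-422a, were left out.

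Line 1 and line 2 carried the same genotype and no drug or other agent is named for them. The labels describe each as homozygous Dgcr8 knockout ES cells, and name V6.5 as the parental line of the knockout on 1 array of line 2. Whether a line was a single clone is not given in the sources used here. Both lines had grown on mouse embryonic fibroblast feeders, from which the cells were passaged off before RNA was taken. The other groups were Dgcr8 heterozygous V6.5 cells (3 arrays) and irradiated feeder fibroblasts (2 arrays), and the feeder arrays are used below. In each line, replicate 1 had the knockout RNA in channel 2 and replicate 2 had it in channel 1, so that same-numbered arrays shared a dye orientation. The arrays of a line were duplicate hybridisations, so the tests below measure a spread that may be technical and not the spread between cultures.

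A microRNA gene is transcribed as a long primary RNA, from which the nuclease Drosha and its RNA-binding partner DGCR8 cut a hairpin that Dicer then trims to the mature microRNA. Mature microRNAs pair with target messages mainly through the seed near their 5′ end, so microRNAs with the same seed share many targets. A few hairpins bypass DGCR8, among them that of miR-320. Mouse ES cells make large amounts of the mir-290 cluster, fibroblasts make much miR-21, miR-143, miR-145, miR-199a and let-7, and the mir-17 family clusters are known as promoters of proliferation.

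The values below are log2 ratios of knockout over wild-type RNA, and a difference is the log2 ratio of line 1 minus that of line 2, in which the wild-type RNA cancels. The direction of the ratio is likely rather than stated, and if it ran the other way every sign would turn. A difference of 1 is 2-fold. A ratio cannot tell less RNA of a microRNA per cell from fewer cells that hold it.

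The mature sequences of the microRNAs on which the comparison turns are given 5′ to 3′ from RefSeq (GRCm38.p6), with the seed, bases 2 to 8, in capitals. The pair called different between the lines and its relatives of the same or a similar seed come first, with miR-370 and miR-149, the next lowest in line 1 among microRNAs measured on all 4 arrays.
miR-125b: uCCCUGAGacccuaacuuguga
miR-125a: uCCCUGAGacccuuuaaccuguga
miR-141: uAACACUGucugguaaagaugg
miR-200a: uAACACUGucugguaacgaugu
miR-200b: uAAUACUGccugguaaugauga
miR-370: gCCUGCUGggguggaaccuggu
miR-149: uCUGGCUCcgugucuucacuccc

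Those of the fibroblast list show how little sequence its members share: among the 9 printed, miR-221 and miR-222 are the pair with a common seed. MiR-23b, the member farthest apart between the lines, is given by name only and was not compared.
miR-21: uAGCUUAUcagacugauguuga
miR-22: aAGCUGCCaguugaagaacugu
miR-23a: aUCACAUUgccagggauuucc
miR-24: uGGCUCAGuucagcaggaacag
miR-27a: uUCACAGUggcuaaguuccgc
miR-29b: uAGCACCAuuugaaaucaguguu
miR-31: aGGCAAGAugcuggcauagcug
miR-221: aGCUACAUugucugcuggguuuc
miR-222: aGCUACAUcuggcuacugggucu

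Those of the mir-17 family clusters show the opposite case, with 1 seed shared by 5 members. MiR-17-5p differs from miR-106a at 1 of 23 positions and from miR-20 at 2, and miR-141 differs from miR-200a at 2 of 22 positions. Probe sequences were not used here, and cross-hybridisation between such near-identical microRNAs cannot be told apart from their own signal.
miR-17-5p: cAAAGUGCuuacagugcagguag
miR-20: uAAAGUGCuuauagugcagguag
miR-106a: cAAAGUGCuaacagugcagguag
miR-106b: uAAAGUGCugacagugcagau
miR-93: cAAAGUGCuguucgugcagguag
miR-18: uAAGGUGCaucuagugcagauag
miR-19a: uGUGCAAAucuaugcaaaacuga
miR-25: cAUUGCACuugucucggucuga
miR-92: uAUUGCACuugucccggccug

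Replicate 1 of line 2 stood apart from the other knockout arrays in its level. Over the 84 microRNAs with a value on all 4 arrays, the median log2 ratio was -6.28 and -6.27 on the arrays of line 1, against -5.36 and -6.28 on those of line 2. Replicate 1 of line 1 held a value for 90 of the 113 microRNAs, while its replicate 2 held all 113, and the arrays of line 2 held 106 and 102. The Dgcr8 message itself is not measured by microRNA probes, so the knockout was checked by its products: 107 of the 113 microRNAs lay below wild type in both lines and 84 lay more than 10-fold below it in both. The mir-290 and mir-302 clusters, which mark ES cells, cannot check the labelled cell type here because they depend on DGCR8. The muscle microRNAs (0 of 3 on the array) and the liver and pancreas list (0 of 1) had no value in both lines, and of the 6 blood microRNAs only miR-150 did.

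The lines had lost largely the same microRNAs, and arrays of different lines did not always lie farther apart than duplicates. The mean log2 ratios of line 1 and line 2 correlated with r = 0.89 across the 113 microRNAs, which share arrays and the wild-type RNA. Line 1 had a median of -5.79, against -5.42 for line 2. Differences had a median of -0.37 and a median size of 0.58, where the median SD between duplicate arrays was 0.34 in line 1 and 0.53 in line 2. The median absolute difference was 0.48 between the duplicates of line 1 and 0.74 between those of line 2. Between the lines it was 0.91 for the replicate 1 arrays and 0.78 for the replicate 2 arrays. Across opposite numbers it was 1.06 against replicate 1 of line 2 and 0.63 against its replicate 2. Within 2-fold lay 77 of the 113, while 12 were more than 2-fold higher in line 1 (10.6%) and 24 more than 2-fold lower (21.2%). The difference was above 0 for 37 microRNAs (32.7%) and below 0 for 76 (67.3%).

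**Figure D1:**
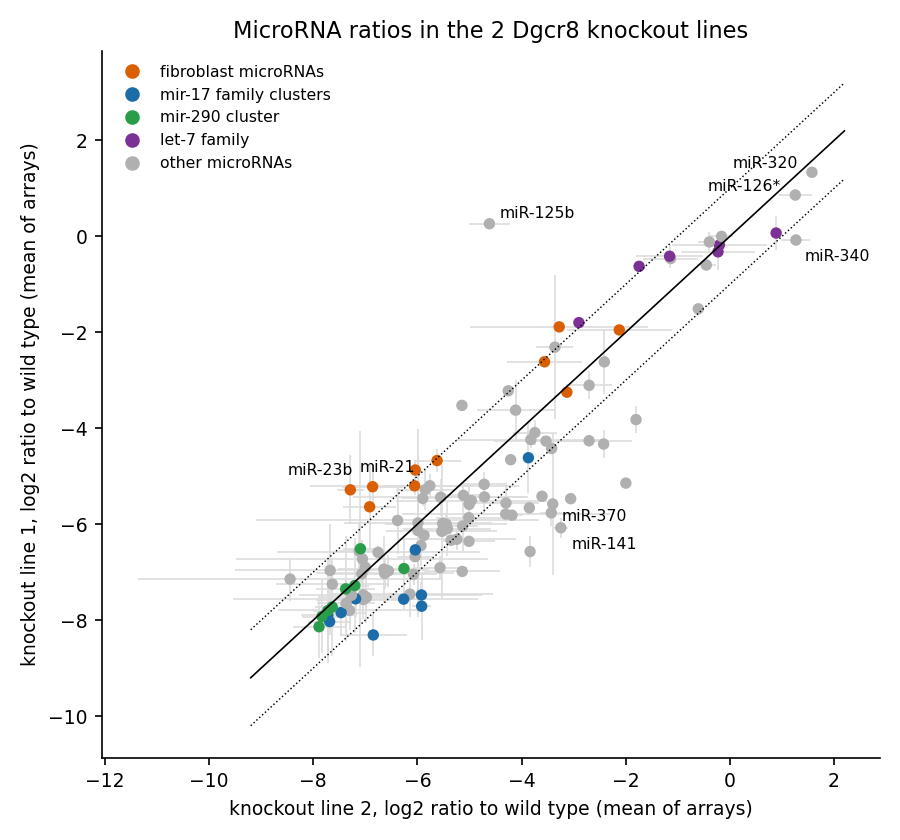
Mean log2 ratio over wild type in line 1 (vertical axis) against line 2 (horizontal axis) for the 113 microRNAs with a value in both lines, coloured by list, with the diagonal of equal ratios, dotted lines at 2-fold and grey bars of 1 SD of the duplicate arrays where both gave a value. Points follow the diagonal with r = 0.89, miR-125b lies far above it (0.26 in line 1, -4.62 in line 2), and 76 of the 113 lie below it.

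This lean towards lower values in line 1 went with replicate 1 of line 2. Replicate 2 of line 1 also had a median difference of -0.85 from that array. From replicate 2 of line 2, replicate 1 of line 1 had a median difference of -0.13. Between the replicate 1 arrays the median difference was -0.84, with 15 of 90 microRNAs above 0 (16.7%). Between the replicate 2 arrays it was 0.22, with 57 of 102 above 0 (55.9%). Of the 84 microRNAs measured in both pairs, 46 had the same sign in both, 34 of them lower and 12 higher in line 1, and 38 had opposite signs. Once every array was centred on its median, the median of all differences moved by more than 0.1, to 0.10, and 66 of the 113 (58.4%) were above 0.

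**Figure D2:**
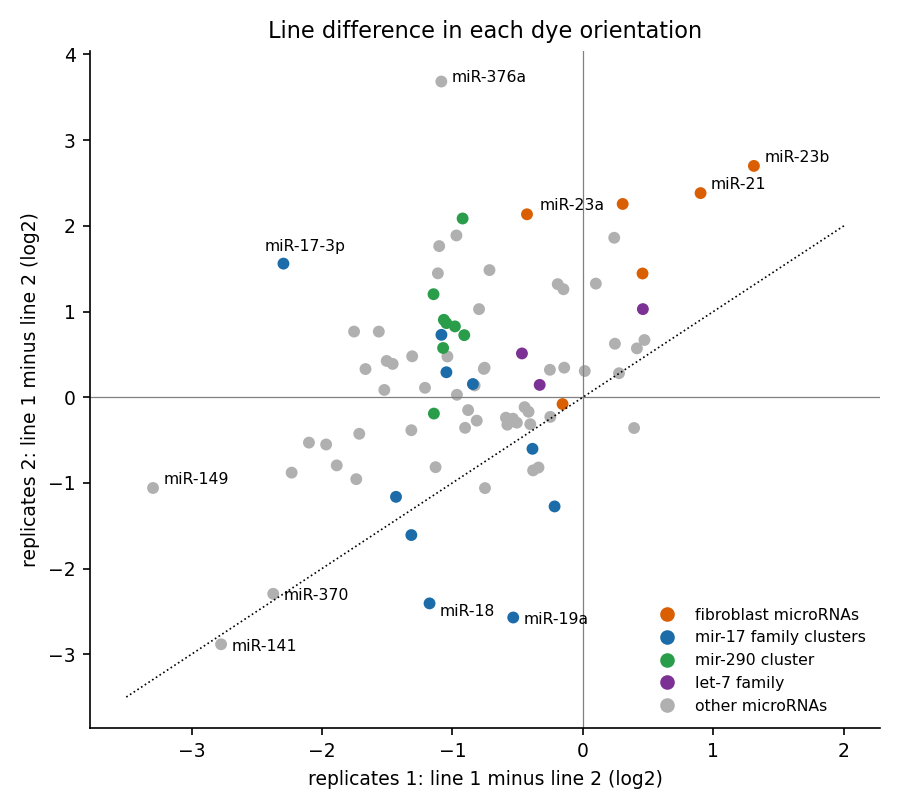
Difference of log2 ratios, line 1 minus line 2, on the replicate 2 arrays (vertical axis) against the replicate 1 arrays (horizontal axis) for the 84 microRNAs with values on all 4 knockout arrays, coloured by list, with a dotted line of equal differences. Of these, 46 have the same sign on both axes and 38 do not, and miR-141, miR-370, miR-149, miR-18, miR-20, miR-93 and miR-23b lie beyond 2-fold on both.

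The test called 2 of the 113 microRNAs different (1.77%), 1 higher in line 1 (0.885%) and 1 lower (0.885%), at an adjusted p of 0.05 (limma, Benjamini-Hochberg). Without adjustment 3 were higher (2.65%) and 11 lower (9.73%) at p under 0.05. Neither call was made with the replicate number, which marks the dye orientation, as a block (adjusted p = 0.401 for both), when all 9 arrays shared 1 spread (0.064 for both) or after quantile normalization (0.204 for both).

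MiR-125b, a microRNA abundant in fibroblasts and neurons that shares its seed with miR-125a, was higher in line 1. Its log2 ratio was 0.26 on replicate 2 of line 1, with no value on replicate 1, against -4.90 and -4.34 in line 2. The lone array of line 1 lay close to wild type, and both arrays of line 2 lay more than 10-fold below wild type. The difference was 4.88 (95% confidence interval 3.05 to 6.71, adjusted p = 0.0023, limma). It ran from 4.59 to 5.83 in the 11 alternatives that could test it. All of these used the same array of line 1, so they could not test its value. The difference rests on 1 array of line 1, and without that array nothing was left to compare. The feeder arrays had miR-125b at 5.48 and 2.52, so that the value of line 1 lay below both. MiR-125a, of the same seed, had log2 ratios of -5.37 and -5.03 in line 1 and of -5.18 and -6.35 in line 2. The arrays of the lines overlapped for it (difference 0.56, adjusted p = 0.83).

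MiR-141, an epithelial microRNA of the mir-200 family known to hold back the transition to a mesenchymal state, was lower in line 1. Its log2 ratio was -5.93 and -6.22 in line 1, against -3.15 and -3.34 in line 2. The groups were far apart and the duplicates close together. The feeder arrays had miR-141 at -4.46 and -6.72, with both values of line 1 between them and both of line 2 above them. The difference was -2.83 (95% confidence interval -4.27 to -1.39, adjusted p = 0.032, limma), and -2.37 after centring, where it was also called (adjusted p = 0.025). Without replicate 1 of line 1 (-2.98, adjusted p = 0.717) or without its replicate 2 (-2.68, adjusted p = 0.752) it was not called.

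The relatives of miR-141 did not share one pattern. MiR-200b had -6.98 on 1 array of line 1 and -5.66 and -4.62 in line 2, a difference of -1.85 that was not called (adjusted p = 0.37). Its only feeder value was also -6.98. MiR-200a, with the seed of miR-141, had -5.02 and -7.24 in line 1 and -5.99 on 1 array of line 2, a value between those of line 1. The cluster of miR-96, miR-182 and miR-183, also listed as epithelial, differed by -0.28, -0.21 and -0.43. Over the 6 epithelial microRNAs measured, 0 were higher in line 1 and 6 lower, 2 of them by more than 2-fold, where 67.3% of all microRNAs were lower. Their median difference was -0.36, near the median of all microRNAs, and it was 0.10 after centring.

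MiR-370, of the imprinted Dlk1-Gtl2 region, and miR-149 followed miR-141 among the microRNAs measured on all 4 arrays. MiR-370 had log2 ratios of -5.95 and -5.57 in line 1, against -3.58 and -3.28 in line 2. MiR-149 had -6.63 and -4.53 in line 1, against -3.33 and -3.47 in line 2. Both lines' arrays were separate for each, with the duplicates of line 1 far apart for miR-149. The differences were -2.33 (adjusted p = 0.115) and -2.18 (adjusted p = 0.169), and neither was called. Both were also more than 2-fold lower in each same-numbered pair, as were miR-141, miR-18, miR-20 and miR-93, 6 microRNAs in all, against 1, miR-23b, that was more than 2-fold higher in each pair.

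The other differences of this size rested on fewer arrays. MiR-369, also of the Dlk1-Gtl2 region, had -5.14 on 1 array of line 1 and -2.00 on 1 array of line 2, which were arrays of opposite dye. MiR-339 had -6.79 and -6.35 in line 1 and -3.84 on 1 array of line 2. MiR-9*, a neural microRNA, had -5.47 and -3.06 on 1 array each, again of opposite dye. For these microRNAs the line 2 value came from replicate 1, the array that stood apart in its level. None was called, with adjusted p of 0.15, 0.15 and 0.33. The arms of 1 hairpin, miR-324-5p (-4.02 and -3.62 in line 1, -1.80 in line 2) and miR-324-3p (-4.53 and -4.12 in line 1, -2.42 in line 2), differed by -2.02 and -1.91, and both lacked a value on replicate 2 of line 2. MiR-297 had -7.12 and -7.80 in line 1, and its -5.02 and -7.27 in line 2 overlapped them (difference -1.32).

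The fibroblast microRNAs lay on the opposite side from most others. Of the 18 on the array, 10 had values in both lines, 9 of them higher in line 1 and 1 lower, where 32.7% of all microRNAs were higher. More than 2-fold higher were 5 of the 10 and more than 2-fold lower were 0, against 10.6% and 21.2% of all microRNAs. Their median difference was 1.06, from -0.12 to 2.00, beside -0.41 for the other 103. No member passed the test after adjustment, and 2 had an unadjusted p under 0.05, both higher in line 1. Of all 43 microRNAs more than 2-fold above wild type in feeders, this list included, 24 were higher in line 1 and 19 lower.

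MiR-23b was the member farthest apart, with log2 ratios of -5.79 and -4.77 in line 1, against -7.10 and -7.47 in line 2. MiR-21, the fibroblast microRNA known for its rise in fibrosis and tumours, had -5.55 and -4.89 in line 1, against -6.45 and -7.27 in line 2. MiR-23a, of the same family as miR-23b, had -6.25 and -5.02 in line 1, against -6.56 and -7.28 in line 2. All arrays of line 1 lay above all arrays of line 2 for these microRNAs, and the same held for miR-24 (-4.85 and -4.50 in line 1, -5.30 and -5.94 in line 2). That made 4 of the 6 members measured on all 4 arrays, against 7 of all 84 (8.33%). The differences were 2.00 for miR-23b (95% confidence interval 0.52 to 3.49, adjusted p = 0.169), 1.64 for miR-21 (adjusted p = 0.326), 1.28 for miR-23a (adjusted p = 0.449) and 0.95 for miR-24 (adjusted p = 0.625). After centring, miR-23b was called higher in line 1 (2.46, adjusted p = 0.024).

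The remaining fibroblast microRNAs were less even. MiR-22 had -5.02 and -4.72 in line 1 and -6.04 on the single array of line 2. MiR-27a had -5.07 and -5.33 in line 1, values that lay between the -4.64 and -7.47 of line 2. MiR-29b had -1.89 on 1 array of line 1, above the -2.07 and -4.49 of line 2. MiR-221 and miR-222, neighbours with 1 seed, had -1.95 and -2.61 on 1 array of line 1, while line 2 had -1.41 and -2.83 for miR-221 and -3.04 and -4.07 for miR-222. Only miR-31 was lower in line 1, with -3.32 and -3.17 against -3.17 and -3.09 in line 2. At -0.12, its difference was within the usual spread between duplicates.

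**Figure D3:**
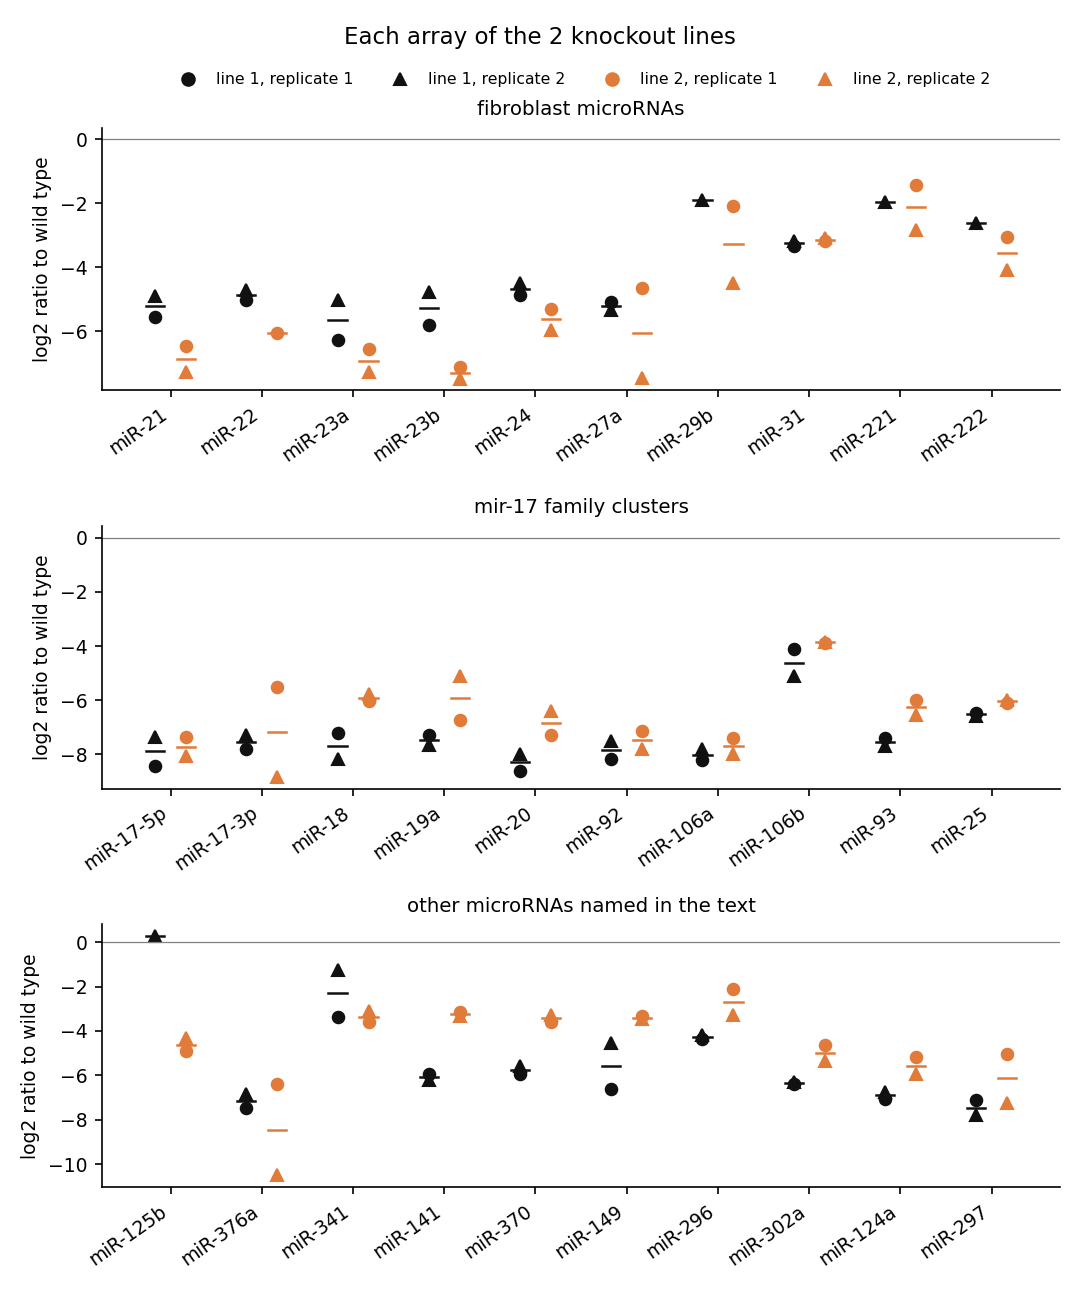
Log2 ratio over wild type on each of the 4 knockout arrays for named microRNAs, line 1 left of line 2, with a mark per array (circle for replicate 1, triangle for replicate 2) and a bar at the mean. Line 1 lies above line 2 for miR-125b, miR-23b, miR-21, miR-23a and miR-24, and below it for miR-141, miR-370 and miR-149.

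The size of the fibroblast difference depended on the array pair, but its side did not. Between the replicate 1 arrays the median was 0.46 with 5 of 7 members higher in line 1, where the median of all microRNAs was -0.84. Between the replicate 2 arrays it was 2.13 with 8 of 9 higher, where the median of all was 0.22. Without replicate 2 of line 2 the median of the list was 0.53, and without its replicate 1 it was 1.64. After centring it was 1.57, with 10 of 10 members higher. If the ratio runs in its likely direction, the listed microRNAs stood at a median of 0.61% of the feeder signal in line 1 and of 0.30% in line 2, and with the direction turned these shares would not hold. The microRNAs that most mark fibroblasts, miR-143, miR-199a and miR-199a*, miR-214 and miR-152, had no value on any knockout array. MiR-145 had one on 1 array of line 1 (-2.01) and none in line 2, and the feeder arrays had it at 5.34 and 3.35. How much of these values came from feeder cells left in the cultures was not tested.

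The mir-17 family clusters lay on the lower side in line 1. All 10 measured members, each with values on 4 arrays, were lower in line 1 and 0 were higher, where 67.3% of all microRNAs were lower. In 6 of the 10 both arrays of line 1 lay below both of line 2, against 32.1% of all microRNAs with 4 values. The median difference was -0.62, beside -0.29 for the other 103 microRNAs. Between the replicate 1 arrays the median was -1.07, with 0 of 10 members higher in line 1. Between the replicate 2 arrays it was -0.88, with 4 of 10 higher. Without replicate 2 of line 2 the median of the clusters was -0.73, beside -0.70 for the other microRNAs. Without its replicate 1 it was -0.66, beside 0.13. No member was called, and miR-18 and miR-19a had an unadjusted p under 0.05.

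MiR-18 had the widest difference in these clusters (-1.79, adjusted p = 0.28), with -7.22 and -8.20 in line 1 and -6.04 and -5.79 in line 2. MiR-19a, known as a main growth-promoting member, had -7.28 and -7.67 in line 1 and -6.74 and -5.10 in line 2. MiR-20 had -8.61 and -8.00 in line 1, against -7.30 and -6.39 in line 2. In these, as in miR-93 (-7.42 and -7.70 in line 1, -5.99 and -6.54 in line 2), the arrays of the lines did not overlap. The other members, miR-106b, miR-25, miR-92, miR-17-3p, miR-106a and miR-17-5p, differed by -0.75 to -0.18. MiR-17-5p had -8.44 and -7.36 in line 1, which overlapped the -7.35 and -8.08 of line 2, although it differs from miR-20 at only 2 positions. After centring, which moved all these members alike, the median of the clusters was -0.17 beside 0.16 for the other microRNAs, with 4 members higher in line 1 and 6 lower.

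The mir-290 cluster, the main microRNAs of mouse ES cells, was far below wild type in both lines. Its 8 members had a median log2 ratio of -7.54 in line 1 and -7.51 in line 2, and none differed by more than 2-fold. The feeder arrays had them at a median of -7.28. Whether values this low differ from background was not tested. The differences ran from -0.67 for miR-291-5p to 0.58 for miR-290, with a median of -0.09. For 7 of the 8 the arrays of the lines overlapped, as they did for 50 of all 84 microRNAs with 4 values. MiR-295, for example, had -8.47 and -7.38 in line 1, against -7.56 and -8.10 in line 2 (difference -0.09, 95% confidence interval -1.59 to 1.40). The pairs disagreed on the side, with a median of -1.06 between the replicate 1 arrays and 0.85 between the replicate 2 arrays. The duplicates of line 1 were far apart for miR-290, at -8.25 and -4.78, and those of line 2 were at -7.33 and -6.86.

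MiR-302a, of the other ES cell cluster, had -6.39 and -6.32 in line 1 and -4.65 and -5.37 in line 2, a difference of -1.35 with no overlap (adjusted p = 0.44). Its cluster neighbours differed the other way on single arrays. MiR-302c had -3.22 in line 1 and -4.26 in line 2, and miR-367 had -3.52 in line 1 and -5.14 in line 2, the last pair on arrays of opposite dye.

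The let-7 family, which accumulates as cells differentiate, had ratios nearer wild type than most microRNAs. Its median log2 ratio was -0.37 in line 1 and -0.69 in line 2. MiR-99a and miR-99b, whose genes lie beside let-7 genes, had ratios near wild type. Of the 6 let-7 probes measured in both lines, 4 were higher in line 1 and 2 lower, with a median difference of 0.38. After centring all 6 were higher (median 0.78), but the median was -0.40 between the replicate 1 arrays, with 1 of 4 higher. It was -0.04 in the fit of all 9 arrays and -0.61 without replicate 2 of line 2. Let-7e had -0.24 and -0.58 in line 1, against -0.70 and -1.61 in line 2, with no overlap (difference 0.74, adjusted p = 0.82). Let-7a had -0.03 and -0.33 in line 1, between the 0.44 and -0.84 of line 2, and let-7b had -0.05 and -0.59 in line 1, between the 0.28 and -0.74 of line 2. Let-7g and let-7d were measured on replicate 2 alone in each line, at -1.80 and -0.62 in line 1 and at -2.90 and -1.74 in line 2. Let-7f, from 1 of its probes, had 0.32 and -0.17 in line 1 and 0.89 on 1 array of line 2. Let-7c had no value in line 1, and 0.02 and -1.63 in line 2.

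MiR-99a had 0.01 and -0.01 in line 1, against -0.01 and -0.31 in line 2, and miR-99b had 0.03 and -0.26 in line 1, against -0.24 and -0.54 in line 2. Their differences, 0.16 and 0.28, were small beside the standard error of 0.69. With miR-125a and miR-125b, 4 of 4 members of these families were higher in line 1, with a median of 0.42. The feeder arrays held let-7, miR-99 and miR-125 members above wild type, apart from miR-99b on replicate 2 (-0.39).

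The Dlk1-Gtl2 region, an imprinted domain expressed from the maternal chromosome with a long array of microRNAs, was split. Of its 21 microRNAs on the array 19 were measured in both lines, 8 higher in line 1 and 11 lower, with a median difference of -0.40 that was 0.05 after centring. Among the 17 with values on all 4 arrays, those of line 1 lay wholly below those of line 2 for miR-370, miR-300, miR-380, miR-382 and miR-381, the last 4 with differences from -0.97 to -0.52. With fewer arrays, miR-369 and miR-154 also lay below, and miR-154 had -5.79 on 1 array of line 1 and -2.89 and -5.72 in line 2. Of the same 17, miR-410 alone lay wholly above, by 0.43. MiR-341, a neighbour of miR-370, had -3.37 and -1.25 in line 1, against -3.61 and -3.11 in line 2. At 1.05, its difference was opposite in sign to the -2.33 of miR-370.

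MiR-376a had the largest difference upwards in this region (1.30), and it rested on 1 array. It had -7.46 and -6.83 in line 1, both between the -6.38 and -10.51 of line 2, and -10.51 was the lowest value on any knockout array. Without replicate 1 of line 2 the difference was 3.37 and was called (adjusted p = 0.00209, limma). MiR-411 (difference 0.71), with -6.28 and -7.64 in line 1 and -6.38 and -8.97 in line 2, likewise had its lowest value on replicate 2 of line 2.

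Of the 10 neural microRNAs on the array 6 were measured in both lines, 1 higher in line 1 (miR-128a) and 5 lower, where 67.3% of all microRNAs were lower. The median difference was -0.68, and after centring it was -0.23, with 2 higher and 4 lower. MiR-124a, the most abundant microRNA of neurons, had -7.08 and -6.73 in line 1, against -5.19 and -5.94 in line 2, with no overlap (difference -1.34, adjusted p = 0.44). MiR-7 overlapped, with -5.16 and -7.14 in line 1 and -4.78 and -6.28 in line 2. MiR-128a had -5.43 and -6.42 in line 1, between the -4.46 and -8.31 of line 2. MiR-150, a lymphocyte microRNA, had -6.16 and -6.47 in line 1, against -4.45 and -6.04 in line 2. In miR-296 and miR-298, neighbours in an imprinted region, the differences were -1.56 and -1.26, and the arrays of line 1 lay below those of line 2.

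Broadly expressed families had median differences between -0.79 and -0.01. The 4 members of the miR-15 and miR-16 family, which restrain the cell cycle, were all lower in line 1 (median -0.51), where 67.3% of all microRNAs were, and all overlapped, as did 50 of the 84 with 4 values. Between the replicate 1 arrays their median was -1.62, and between the replicate 2 arrays it was 0.58. MiR-103 and miR-107 differed by 0.10 and -0.41, the miR-30, miR-26 and miR-101 families had a median of -0.01, and the miR-181 family had one of -0.79 over 2 members. MiR-26a and miR-335 were higher in line 1 in both pairs, by 0.57 and 0.49 on average, with overlapping arrays. MiR-130a, miR-130b, miR-301 and miR-148a were all lower in line 1, with a median of -0.55, and miR-148a, at -1.63, rested on 1 array of line 1. The smallest differences among microRNAs with 4 values were those of miR-342 (0.02), let-7a (0.02), miR-292-3p (0.03), miR-409 (0.03) and miR-294 (-0.08). MiR-342 had duplicates far apart, with -4.59 and -7.36 in line 1 and -4.98 and -7.00 in line 2, so that a mean close to 0 came with wide spread.

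**Figure D4:**
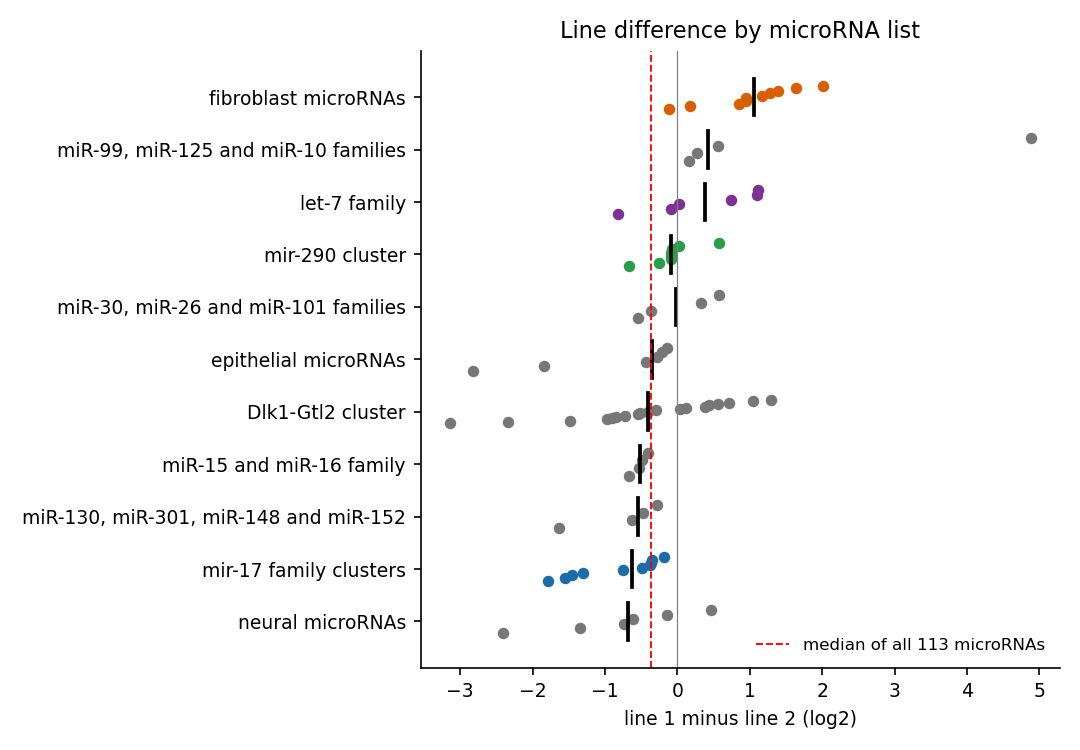
Difference of log2 ratios, line 1 minus line 2, for each microRNA (points) by list, with the median of the list as a bar and a dashed line at the median of all 113 (-0.37). The fibroblast list has a median of 1.06 with 9 of 10 points above 0, the mir-17 family clusters have a median of -0.62 with 10 of 10 below, and the mir-290 cluster has a median of -0.09.

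Some microRNAs had ratios at or above wild type in a line. Spot intensities were not used here, so a ratio near 0 is no measure of how much RNA was present. MiR-320, made without DGCR8, had log2 ratios of 1.38 and 1.30 in line 1, against 1.63 and 1.53 in line 2. All 4 arrays were above 0, and those of line 1 lay below those of line 2 by 0.24 (adjusted p = 0.89), a side that turned to 0.21 after centring. MiR-126*, the second arm of an endothelial microRNA hairpin, had 0.95 and 0.78 in line 1, against 1.48 and 1.03 in line 2. The main arm of the same hairpin, miR-126, had -5.42 on 1 array of line 1 and -3.61 on 1 array of line 2, so that the arms lay apart in both lines. These values of miR-126 came from arrays of opposite dye. Besides miR-320 and miR-126*, let-7f had a mean above 0 in both lines.

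MiR-340, like miR-125b, had opposite signs in the lines on every array with a value, at -0.08 in line 1 (1 array) and at 1.47 and 1.07 in line 2. The difference of -1.34 was not called (adjusted p = 0.58). MiR-138, a neural microRNA with ratios near wild type, had -0.60 in line 1 (1 array) and -0.32 and -0.58 in line 2. MiR-211 had -0.46 in line 1 (1 array), against -0.76 and -1.51 in line 2.

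In several clusters of neighbouring genes the members lay on the same side, and in others they were split. Of the 113, 63 lay in 18 clusters with neighbours within 10 kb. The SD of the differences within clusters was 0.88, against 1.03 over the same 63 microRNAs. In the mir-17 cluster 6 of 6 members were lower in line 1 and in the cluster of miR-25, miR-93 and miR-106b 3 of 3 were. Of all microRNAs 67.3% were lower. Higher in line 1 were both of miR-23b and miR-24, both of miR-23a and miR-27a, both of miR-221 and miR-222, and all 3 of miR-99b, let-7e and miR-125a. Of all microRNAs 32.7% were higher. MiR-24 was placed on chromosome 13 by its probe name. Its sequence above comes from chromosome 8, where miR-23a and miR-27a lie, so its cluster is not settled. Members were split in the mir-290 cluster (2 higher, 6 lower) and among miR-302c, miR-302a and miR-367 (2 higher, 1 lower). The largest cluster, 15 members of the Dlk1-Gtl2 region, had 6 higher and 9 lower, from -3.15 to 1.30. MiR-341 and miR-370 also lay on opposite sides, as did miR-337 and miR-127. The clusters include those of the lists above, so these counts repeat the same values.

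Differences were then set against the level of each microRNA in feeder cells. The 43 microRNAs more than 2-fold above wild-type ES cells in feeders had a median difference of 0.12, with 24 higher in line 1 and 19 lower. They include all 10 measured members of the fibroblast list, 9 of them higher in line 1. The 34 more than 2-fold below had a median of -0.44, with 3 higher and 31 lower, where 67.3% of all microRNAs were lower. The 23 within 2-fold had a median of -0.35. Across the 100 microRNAs with a feeder value the difference and the mean feeder ratio correlated with r = 0.36 (Spearman rho = 0.40), and without miR-125b r was 0.35. Within the replicate 1 pair r was 0.31 (85 microRNAs) and within the replicate 2 pair it was 0.32 (95 microRNAs). The correlation was not computed without the fibroblast list, so it is not a result separate from that list. The points share arrays and probes, and the wild-type RNA cancels in the difference but stays in the feeder ratio. After centring, the medians of the groups were 0.57 for those above, 0.11 for those within and 0.00 for those below 2-fold, so the order was kept. By count, 17 of the 34 below were then higher in line 1 and 17 lower. Of the 43 above, 33 were higher and 10 lower, where 58.4% of all microRNAs were higher.

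**Figure D5:**
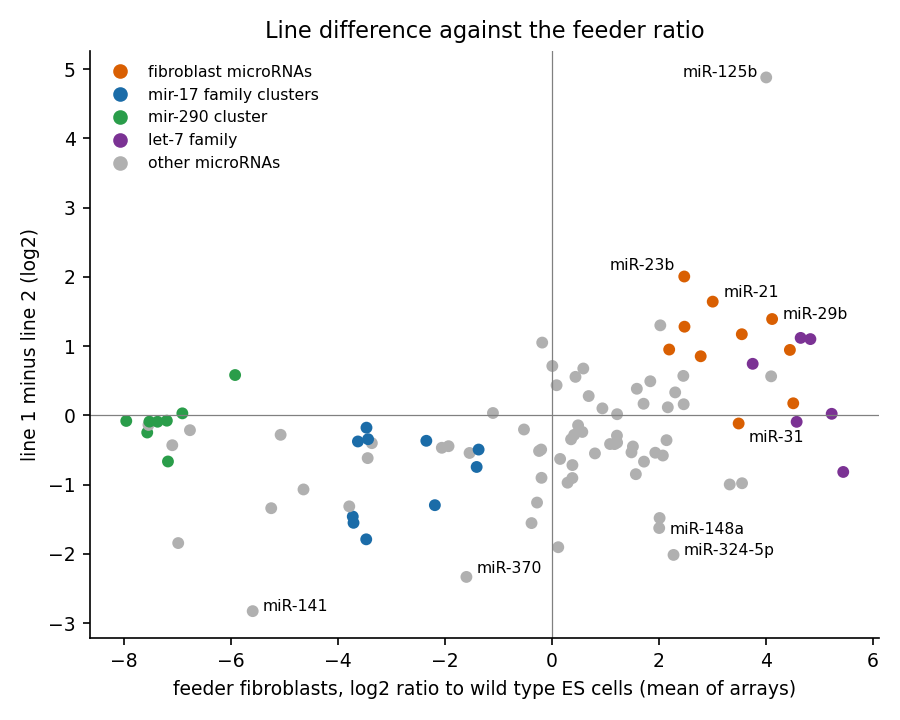
Difference of log2 ratios, line 1 minus line 2 (vertical axis), against the mean log2 ratio of feeder fibroblasts over wild-type ES cells (horizontal axis) for the 100 microRNAs with a feeder value. Among the 34 microRNAs more than 2-fold below wild type in feeders 31 lie below 0, where 67.3% of all 113 do. Among the 43 more than 2-fold above, 24 lie above 0, where 32.7% of all 113 do (r = 0.36). These 43 include all 10 measured fibroblast microRNAs, 9 of them above 0.

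Of the 43 microRNAs more than 2-fold above wild type in feeders, 19 were lower in line 1, and examples follow. MiR-34a (3.55 on 1 feeder array) had -6.33 on 1 array of line 1 and -5.35 on 1 of line 2. MiR-31 (3.88 and 3.10 in feeders) differed by -0.12, miR-181a (4.19 and 2.46 in feeders) had -4.42 on 1 array of line 1 and -3.42 on 1 of line 2, and miR-324-5p (1.67 and 2.87 in feeders) was lower in line 1. MiR-16, at 2.03 and 0.94 in feeders, had -7.85 and -7.29 in line 1, against -6.40 and -7.68 in line 2.

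MicroRNAs measured in 1 line alone mostly came from 1 array. In line 1 there were 13, of which 12 had a value on replicate 2 only, the array with the most values. These were miR-9, miR-34c, miR-132, miR-145, miR-151, miR-185, miR-186, miR-203, miR-205, miR-213, miR-351 and miR-425, from -5.62 for miR-9 to -1.87 for miR-213. MiR-184 had values on both arrays of line 1 (-4.72 and -5.72) and on neither of line 2. In line 2 there were 5: let-7c, miR-155 (-1.61 and -3.62), miR-135a (-1.97), miR-142-5p (-4.07) and miR-194 (-3.88). The rule by which spots were left without a value is not given in the sources used here, so a missing value is no measure of absence.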

How the data were processed

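MicroRNAs were measured on two-colour arrays. The deposited values are log10 ratios of own over wild-type RNA, normalised by the authors on added positive control RNAs, per the series text. The base was read from rounding on replicate 2 of line 1 (90 of 90 low values, 3.84% by chance) and taken for the other arrays. Replicate 1 of line 1 held 2 spreadsheet errors among its deposited values (other unit), which were treated as missing. The sources used here give no image software, background correction, build or spot filter, and scale beyond the control RNAs and centring are unknown.

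Ratios were multiplied by 3.3219 to give log2, with no pseudocount or filter. Line 1 minus line 2 was tested with limma 3.58.1 in R 4.3.3 (lmFit, eBayes, no block) on the 4 knockout arrays, adjusted by Benjamini and Hochberg over 113 probes at 0.05, and checked on simulated data. The 12 probes with 1 array in each line borrowed their whole spread from the others. Alternatives were a replicate block, all 9 arrays in 1 fit, averaged duplicates, complete values, centring, quantile normalization, robust moderation, a filter on low ratios and leaving out each array. With averaged duplicates each line was 1 value beside the heterozygous arrays, which alone gave the spread. The number of arrays limits the precision, and spot intensities were not used here. Names come from the RefSeq table of GRCm38.p6. The text names called microRNAs, the 10 highest and 10 lowest complete differences of 1 sign in both pairs, the 5 smallest, and listed members, and others named were chosen after their values were seen. The members and lists were chosen with earlier results of these data known.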

Additional observations from a re-analysis of the deposited data

Results flagged for a closer look

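MiR-125b differed between the lines in the limma test (difference 4.88, line 1 at 0.26 on 1 array and line 2 at -4.62). MiR-141 differed likewise (difference -2.83, line 1 at -6.07 and line 2 at -3.25). MiR-340 lay below wild type on the only array of line 1 with a value and above it on both arrays of line 2 (difference -1.34), and that opposition of signs was not tested.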

How the results depend on the processing

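The calls depended on the setting. In place of 1 higher and 1 lower in line 1, limma called 0 and 0 with the replicate block (adjusted p = 0.401 for miR-125b and miR-141, unadjusted p under 0.05 for 2 higher and 6 lower), 0 and 0 with all 9 arrays in 1 fit (2 and 11), 0 and 0 with complete values only, where miR-125b was not tested (2 and 7), and 0 and 0 after quantile normalization (7 and 4). The filter on low ratios gave 4 lower, centring 2 higher, and centring with the replicate block, chosen after seeing the data, 3 higher. Averaged duplicates left 1 value per line, so the spread in that fit came from heterozygous arrays alone, and its calls are not given. Leaving out 1 array gave 0 to 2 higher and 0 to 5 lower. Without replicate 2 of line 2, miR-369, miR-339, miR-154 and miR-297 were also called. Same-numbered arrays deviated together with r = 0.31 over 84 microRNAs, but with 2 pairs and no shared batch in the labels the numbers show only dye orientation.

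More than 2-fold higher in line 1 were 12 microRNAs, and 5 with complete values, 22 with centring, 23 with centring and block, and 5 to 24 with 1 array left out. More than 2-fold lower were 24, and 14 in the fit of 9 arrays, with averaged duplicates and with the filter on low ratios, 13 with complete values, 15 with centring, and 10 to 42 with 1 array left out.

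The mir-17 median moved to -0.17 with centring, with quantile normalization and with centring and block (-0.85 to -0.66 with 1 array left out), and the epithelial median to 0.10 with centring, with or without block, and to -1.56 with the filter (-0.89 to -0.14 with 1 array left out). The filter also moved the median of miR-130, miR-301 and miR-148a to -1.63, and complete values that of the mir-302 cluster to -1.35 (-1.38 to 1.04 with 1 array left out). With 1 array left out, the medians ran from -0.91 to 0.21 in the Dlk1-Gtl2 cluster, from -0.87 to 0.62 in the miR-30, miR-26 and miR-101 families and from -1.46 to 0.37 in the neural list. Causes were not tested. No called difference changed sign.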
